A study of Mus musculus with 6 samples.

Results

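The genes described here encode the NF-kB subunits (Nfkb1, Nfkb2, Rel, Rela and Relb), the cytoplasmic inhibitors Nfkbia and Nfkbie, and the nuclear inhibitors Bcl3, Nfkbid and Nfkbiz. They were taken by name from the deposited count table, as 10 of its 29393 genes. The rule uses no measured value, although earlier results of these data were known when it was set. The cells were cDNT, mouse T cells without the CD4 and CD8 coreceptors that were obtained in culture by converting CD4+CD25- T cells with IL-2 and mature dendritic cells and were then sorted. All libraries came from adult C57BL/6 cells, which the labels assign to spleen. The methods of the study name anti-CD3/CD28 antibodies together with IL-10. They do not say whether cells W/O IL-10 also received these antibodies. Cells W/ IL-10 received the cytokine at 50 ng/ml for 24 h, cells W/O IL-10 received none, and each group had 3 libraries. Neither the labels nor the methods say whether the libraries came from separate mice or cultures, so the p-values measure the spread between these libraries, which may be technical.

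NF-kB is a family of transcription factors that act as dimers. In resting cells, inhibitors of the IkB family hold the dimers in the cytoplasm. Signals from the T cell receptor, TNF receptors or Toll-like receptors activate the IKK kinase, which marks the inhibitors for destruction and frees the dimers to enter the nucleus. Bcl-3, IkB-zeta (Nfkbiz) and IkB-NS (Nfkbid) are atypical members of the inhibitor family that sit in the nucleus on dimers of the small subunits and can either raise or lower transcription. In macrophages, Bcl3 and Nfkbid are known as genes that IL-10 induces. The IL-10 receptor itself signals through STAT3, and Socs3 is a classical gene of that response.

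Total counts on genes were 21619420 to 23967088 per library, and 3 counts corresponded to 0.123 to 0.146 CPM (counts scaled to a common library total with TMM factors, the level scale used below), a floor that covers counting error only. T cell markers were abundant, with a summed level over 7 genes of 1309 to 1673 CPM W/O IL-10 and 1740 to 1859 CPM W/ IL-10. None of the 7 passed edgeR's threshold defined below, although 4 had an unadjusted p under 0.05, 3 higher and 1 lower. The lower one, Cd5 (62.4 and 44.9 CPM), had an edgeR adjusted p of 0.0467 but changed by less than 1.5-fold. Of the coreceptors that define the cells by their absence, Cd4 was low (average 1.39 CPM in cells W/O IL-10, 0.889 in cells W/ IL-10). Cd8a and Cd8b1 were not low, and both were higher W/ IL-10. Cd8b1 was called (38.1 and 60.8 CPM, edgeR adjusted p = 0.0306). Cd8a fell just short of the fold threshold (107 and 158 CPM, 1.48-fold, edgeR adjusted p = 0.0369). The T cell genes and Cd4 thus followed the labelled cell type, and the Cd8 transcripts did not. B cell genes summed to 62.3 to 153 CPM W/O IL-10 and 59.4 to 106 CPM W/ IL-10 (5 genes), macrophage genes to 4.95 to 11.2 and 4.97 to 5.30 CPM (5 genes) and erythroid genes to 0.869 to 3.88 and 0.311 to 1.02 CPM (3 genes). None of these genes passed with edgeR, DESeq2 or limma-voom, and 1 macrophage and 1 erythroid gene had an unadjusted p under 0.05. Dendritic cell genes summed to 29.4 to 33.0 CPM W/O IL-10 and 50.1 to 61.0 CPM W/ IL-10 (6 of the 7 genes listed), and 1 of them, Itgax, was called (20.4 to 43.2 CPM, edgeR adjusted p = 0.00383). With IL-10, Xcr1 lay higher (105 to 147 counts, against 85 to 99) and Zbtb46 lower (96 to 120 counts, against 143 to 170), both without overlap and neither called, Flt3 had at most 7 counts, and Clec9a and Siglech never exceeded 3 counts. Their part in the results below was not tested, and in bulk RNA fewer cells of a type and less RNA per cell cannot be told apart.

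Promoter sequences from RefSeq (GRCm38.p6) were matched for 7 of the 10 genes, with 11 start sites, and none was matched for Nfkb1, Relb and Nfkbiz. The windows of 250 bases before and 50 bases after each start were searched on both strands for the kappaB consensus, the 10-base recognition sequence of NF-kB, and for TTCNNNGAA, the 9-base core bound by STAT factors. The kappaB consensus was present in 8 of the 11 windows and in 6 of the 7 genes, all but Rela, against 4.51% of all 32851 promoter windows and 5.14% of all 27025 genes. Some windows of Nfkb2 overlap, and a match that they share, GGGACTTTCC, is counted in each, so the windows are not independent. The STAT core was present in 3 windows, of Nfkb2 and Nfkbid, against 8.30% of all windows. A match is a description of these letters, not evidence of binding. The sequences of Bcl3, Nfkbia and Nfkb2 are shown because each carries a kappaB match close to the start, although the genes differed in their response. They run 5′ to 3′ from 250 bases before the start through its first 30 bases. Capitals mark the motif matches, which are all kappaB except the first in Nfkb2, TTCCCCGAA, the STAT core. The longer capital run in Nfkb2 holds a pair of overlapping kappaB matches.
Bcl3 (chr7:19822726-19823005, minus strand): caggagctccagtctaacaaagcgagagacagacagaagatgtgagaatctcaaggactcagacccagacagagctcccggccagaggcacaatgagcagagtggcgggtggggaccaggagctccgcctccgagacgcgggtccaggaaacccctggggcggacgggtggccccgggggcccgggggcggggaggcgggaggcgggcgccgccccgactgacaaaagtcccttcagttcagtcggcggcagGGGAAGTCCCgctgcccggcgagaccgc
Nfkbia (chr12:55492618-55492897, minus strand): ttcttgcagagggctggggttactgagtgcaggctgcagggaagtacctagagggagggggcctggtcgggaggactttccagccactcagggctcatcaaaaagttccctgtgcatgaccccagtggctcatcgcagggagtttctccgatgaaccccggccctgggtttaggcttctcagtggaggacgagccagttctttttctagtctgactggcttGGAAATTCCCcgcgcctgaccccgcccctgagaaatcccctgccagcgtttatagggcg
Nfkb2 (chr19:46304487-46304766, plus strand): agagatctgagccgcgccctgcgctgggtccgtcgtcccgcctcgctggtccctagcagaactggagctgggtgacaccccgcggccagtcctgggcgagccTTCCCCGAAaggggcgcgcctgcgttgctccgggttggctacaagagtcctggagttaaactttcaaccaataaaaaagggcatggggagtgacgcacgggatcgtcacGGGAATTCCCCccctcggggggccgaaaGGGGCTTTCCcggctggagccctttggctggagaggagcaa

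With the start base counted as 0, the match GGGAAGTCCC in Bcl3 ran from base 2 to base 11, just inside the transcript. The match GGAAATTCCC in Nfkbia lay at bases -29 to -20. In Nfkb2 the nearest match, GGGGCTTTCC, lay at bases -11 to -2, and the STAT core at bases -148 to -140. Rel held GGGAAATCCC at bases -92 to -83 and Nfkbie GGGGGATTCC at bases -106 to -97. Matches were thus held both by Bcl3, which was called below, and by Nfkbia, Nfkb2, Rel, Nfkbie and Nfkbid, which were not.

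All 10 genes reached 10 counts in 3 libraries or more, the minimum set for testing, and were compared with edgeR's quasi-likelihood test on all 14916 genes that passed it. A gene was called at a fold change of at least 1.5 with a Benjamini-Hochberg adjusted p under 0.05. Bcl3 and Nfkbiz, both nuclear inhibitors, were higher W/ IL-10, no member was lower, and the other 8 were not called. DESeq2 and limma-voom also called 2, and the members with an unadjusted p under 0.05 were 3, all of them higher. The share of all tested genes at that unadjusted p is not given here, so this count cannot be set against it. For comparison, 1.45% of all tested genes were called in either direction and 0.778% were called higher. The median log2 fold change of the 10 genes was 0.0074, against 0.0063 over all tested genes.

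**Figure D1:**
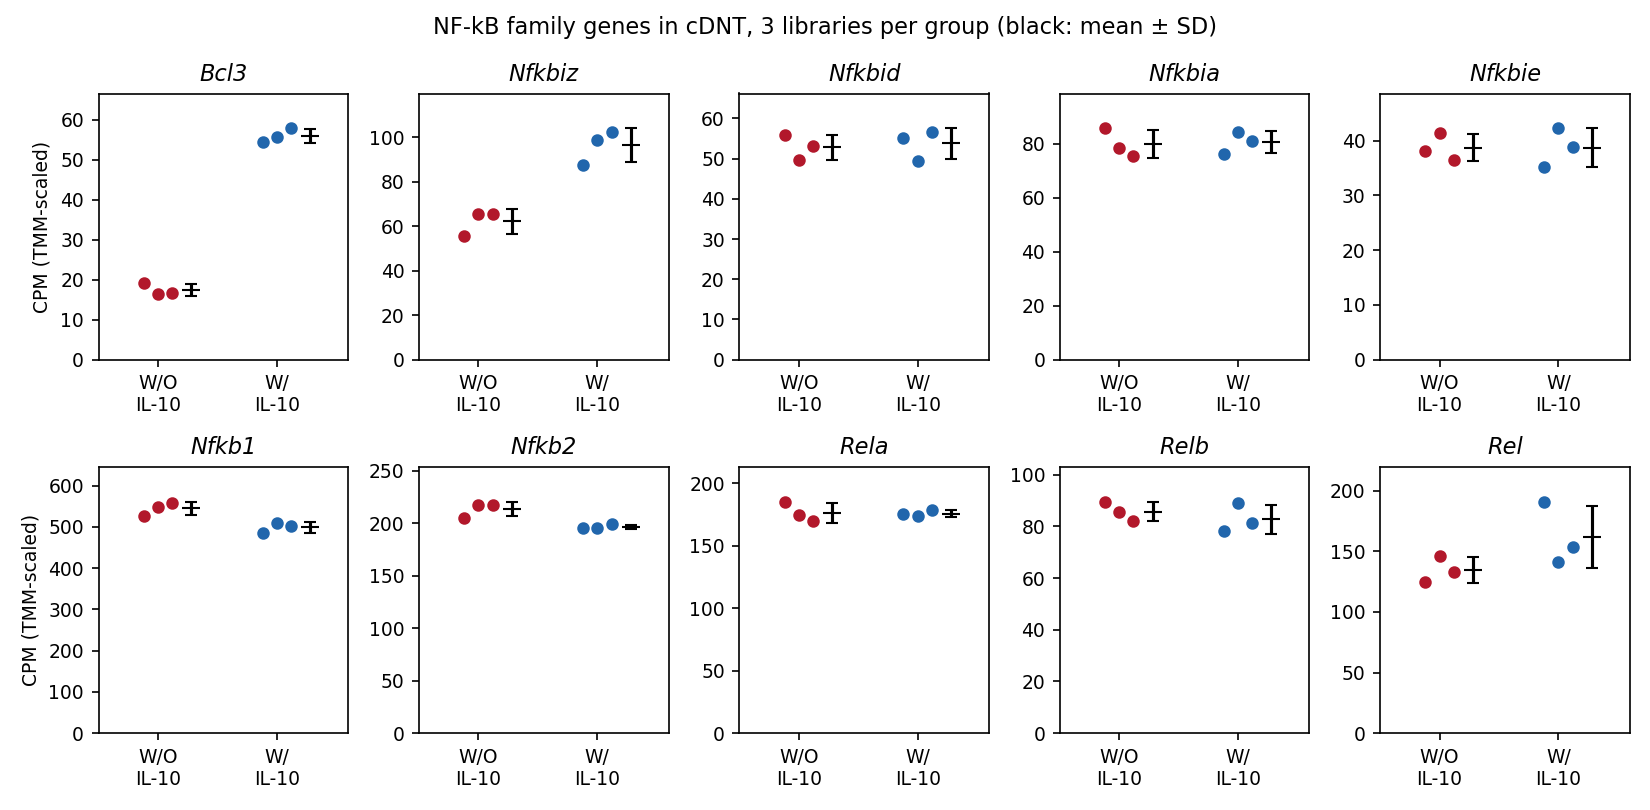
Level of each gene (y axis, TMM-scaled CPM from 0) in every library, with W/O IL-10 in red and W/ IL-10 in blue, and the mean ± SD of 3 libraries in black beside the points. The groups stand clear of each other for Bcl3 (16.4 to 19.2 against 54.4 to 57.8 CPM) and Nfkbiz (55.8 to 65.6 against 87.7 to 102 CPM), and lie close together or overlap for the other 8 genes.

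Bcl3 (ENSMUSG00000053175, GRCm38 chr7:19808462-19822770, minus strand) encodes Bcl-3, a nuclear cofactor of p50 and p52 dimers first found as a proto-oncogene in B cell leukaemia. Its counts were 469, 396 and 385 in the libraries W/O IL-10 and 1119, 1252 and 1320 in those W/ IL-10, which gave 19.2, 16.4 and 16.6 CPM against 54.4, 55.6 and 57.8 CPM. Every library W/ IL-10 lay above every library W/O IL-10, and within a group the libraries stayed close together. The mean went from 17.4 ± 1.55 to 55.9 ± 1.76 CPM (SD, n = 3 each). This was 1.69 ± 0.093 (SE) on the log2 scale, or 3.22-fold with a 95% interval of 2.78 to 3.73 (edgeR's quasi-likelihood test, adjusted p = 0.000202). Bcl3 ranked 2nd of all tested genes by p and 11th by fold change among the 116 genes called higher. It was called under each of the 14 alternative settings, at log2 fold changes of 1.64 to 1.82 and adjusted p of at most 0.00493. Of its exon bases, 6.51% also lie in the antisense gene Gm16175, which had 3 to 4 counts per library in cells W/O IL-10 and 0 in cells W/ IL-10.

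Nfkbiz (ENSMUSG00000035356, GRCm38 chr16:55811375-55838899, minus strand) encodes IkB-zeta, which is itself made on stimulation and is needed for a later wave of NF-kB target genes. It measured 55.8, 65.5 and 65.6 CPM W/O IL-10 and 87.7, 98.9 and 102 CPM W/ IL-10, so the groups did not overlap and replicate 1 was the lowest library in each. The mean rose from 62.3 ± 5.63 to 96.4 ± 7.71 CPM (SD, n = 3 each), 1.55-fold with a 95% interval of 1.34 to 1.79 (edgeR's quasi-likelihood test, log2 fold change 0.63, SE 0.093, adjusted p = 0.0146). The call stood close to the fold threshold. It was lost without W/O IL-10 replicate 1, where the log2 fold change fell to 0.55, under the 0.585 that a 1.5-fold change requires (edgeR, adjusted p = 0.00461). It was also lost without W/O IL-10 replicate 2 (0.66, edgeR adjusted p = 0.0588), W/ IL-10 replicate 2 (0.61, edgeR adjusted p = 0.0646) or W/ IL-10 replicate 3 (0.584, edgeR adjusted p = 0.110). The direction and the size thus stayed within 0.55 to 0.69 on the log2 scale, while the call depended on the libraries used.

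Nfkbid (ENSMUSG00000036931, GRCm38 chr7:30421732-30428746, plus strand) encodes IkB-NS, the remaining nuclear inhibitor, known in T cells for its part in IL-2 production and in the development of regulatory T cells. Its levels were 55.9, 49.6 and 53.1 CPM W/O IL-10 and 55.2, 49.5 and 56.7 CPM W/ IL-10. The groups overlapped almost completely (52.8 ± 3.13 and 53.8 ± 3.80 CPM, SD, n = 3 each). The log2 difference was 0.025 with a 95% interval of -0.17 to 0.22 (edgeR, adjusted p = 0.923). The summed level of the 3 nuclear inhibitors was 131, 131 and 135 CPM W/O IL-10 and 197, 204 and 217 CPM W/ IL-10, with no overlap. That gap follows from Bcl3 and Nfkbiz, which were already called higher, and is not a separate result.

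The cytoplasmic inhibitors did not pass the threshold. Nfkbia (ENSMUSG00000021025, GRCm38 chr12:55489410-55492647, minus strand) encodes IkB-alpha, the classical inhibitor that NF-kB itself induces and that is widely used as a readout of its activity. Its levels were 85.8, 78.5 and 75.5 CPM W/O IL-10 and 76.3, 84.5 and 81.2 CPM W/ IL-10, which overlapped. The means were 79.9 ± 5.28 and 80.7 ± 4.14 CPM (SD, n = 3 each), a log2 difference of 0.013 with a 95% interval of -0.16 to 0.19 (edgeR, adjusted p = 0.960). Nfkbie (ENSMUSG00000023947, GRCm38 chr17:45555703-45563169, plus strand) encodes IkB-epsilon, a slower feedback inhibitor. It measured 38.2, 41.4 and 36.5 CPM W/O IL-10 and 35.2, 42.2 and 38.8 CPM W/ IL-10, again overlapping, with a log2 difference of 0.0015 and a 95% interval of -0.22 to 0.22 (edgeR, adjusted p = 0.997). For both genes the interval was narrower than a 1.5-fold change in either direction.

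None of the 5 subunit genes passed either. Nfkb1 (ENSMUSG00000028163, GRCm38 chr3:135584655-135691547, minus strand), whose product p105 is cut to the small subunit p50, measured 527, 548 and 559 CPM W/O IL-10 and 485, 510 and 503 CPM W/ IL-10. Nfkb2 (ENSMUSG00000025225, GRCm38 chr19:46304320-46312385, plus strand), the source of p100 and p52 in the alternative pathway, measured 205, 217 and 217 CPM W/O IL-10 and 195, 195 and 199 CPM W/ IL-10. In both, each library W/ IL-10 lay below each library W/O IL-10. Such a gap between the groups, in either direction, was found for 22.6% of all tested genes. The differences were small: -0.13 on the log2 scale for Nfkb1 (95% interval -0.29 to 0.044, edgeR adjusted p = 0.490) and -0.12 for Nfkb2 (95% interval -0.27 to 0.035, edgeR adjusted p = 0.469). For Nfkb1 the difference kept its sign under all 14 alternatives, whereas for Nfkb2 it was 0.0052 once corrected for GC content and exon length. In Nfkb2, 18.11% of the exon bases lie in genes on the opposite strand, among them Psd (34.7 ± 3.42 and 30.5 ± 1.66 CPM), and the use of strand in counting is not given in the sources used here, so reads of these genes cannot be told apart there.

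Rela (ENSMUSG00000024927, GRCm38 chr19:5637483-5648130, plus strand), the main transactivating subunit of the classical pathway, measured 185, 175 and 170 CPM W/O IL-10 and 175, 174 and 179 CPM W/ IL-10. Relb (ENSMUSG00000002983, GRCm38 chr7:19606217-19629438, minus strand), the partner of p52, measured 89.5, 85.5 and 82.1 CPM W/O IL-10 and 78.0, 88.9 and 81.4 CPM W/ IL-10. The groups overlapped for both genes, with log2 differences of -0.0063 for Rela (95% interval -0.16 to 0.15, edgeR adjusted p = 0.980) and -0.050 for Relb (95% interval -0.22 to 0.12, edgeR adjusted p = 0.808). Rel (ENSMUSG00000020275, GRCm38 chr11:23736847-23770970, minus strand) encodes c-Rel, a subunit of lymphocytes that drives IL-2 transcription. It measured 124, 146 and 133 CPM W/O IL-10 and 191, 142 and 154 CPM W/ IL-10, and W/ IL-10 replicate 1 stood above the other 5 libraries, which overlapped. Its log2 difference was 0.27 with a 95% interval of 0.0014 to 0.53 and did not pass (edgeR, unadjusted p = 0.0491, adjusted p = 0.336). Without W/ IL-10 replicate 1 it was 0.13, and corrected for GC content and exon length it was 0.16 (edgeR, adjusted p = 0.411).

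**Figure D2:**
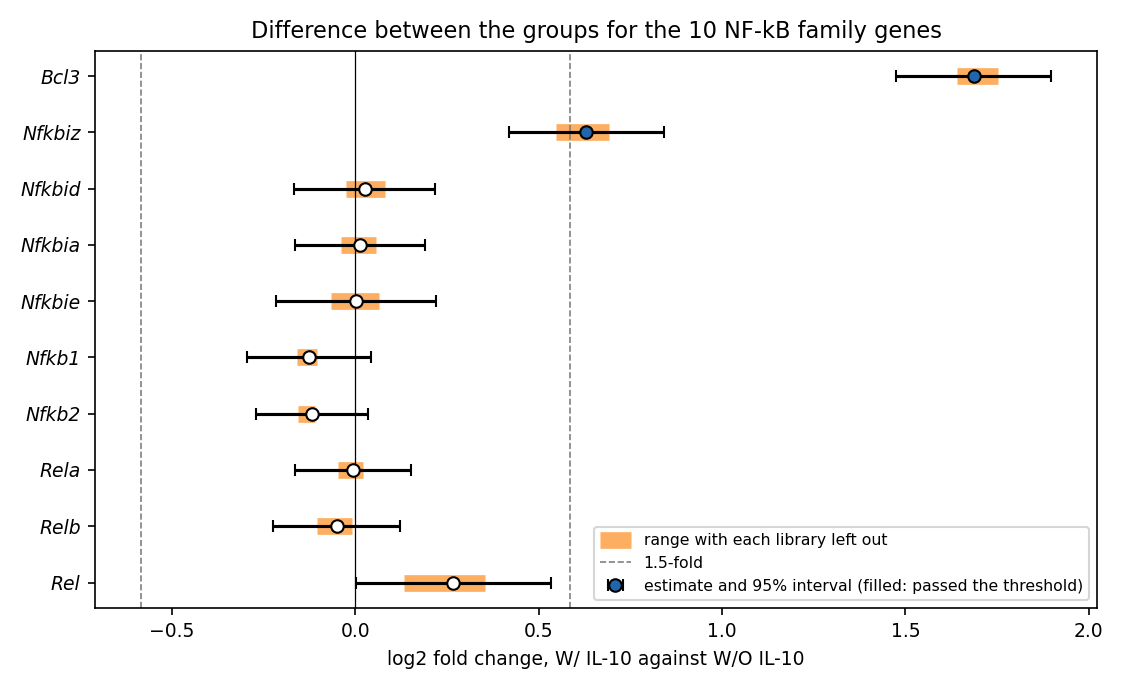
Log2 fold change of each gene (x axis, W/ IL-10 against W/O IL-10) with its 95% interval from edgeR, filled where it passed the threshold, and the range when each library was left out in turn in orange. The intervals of the 8 uncalled genes, from -0.29 to 0.53, lie between the dashed lines of a 1.5-fold change, and that of Bcl3, from 1.48 to 1.90, lies wholly above the upper line.

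For each of the 8 uncalled genes the 95% interval of the difference excluded a 1.5-fold change in both directions. The bounds over the 8 genes were 0.815-fold and 1.45-fold, and the adjusted p ranged from 0.336 to 0.997. Smaller changes remained possible. The summed level of the 5 subunits was 1132, 1172 and 1161 CPM W/O IL-10 and 1124, 1109 and 1116 CPM W/ IL-10, lower and without overlap. Nfkb1 was the largest part of this sum (545 ± 16.2 and 499 ± 13.1 CPM), whereas Rel was higher W/ IL-10 (135 ± 10.9 and 162 ± 25.7 CPM). None of the 5 was called, and 22.6% of all tested genes had such a gap singly. The summed level of the 2 cytoplasmic inhibitors was 119 ± 6.06 and 119 ± 7.66 CPM.

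To compare genes with each other, the CPM of each was divided by the length of its merged exons in kilobases. On this scale the levels W/O IL-10 ran from Rela (57.5 ± 2.59 CPM per kb), Nfkbia (49.7 ± 3.28), Nfkb2 (46.5 ± 1.53) and Nfkb1 (45.2 ± 1.35) through Nfkbid (22.5 ± 1.34), Relb (22.1 ± 0.957) and Rel (18.0 ± 1.46) to Nfkbie (12.7 ± 0.815), Nfkbiz (12.4 ± 1.12) and Bcl3 (7.02 ± 0.627). Neighbours whose libraries overlapped, and so had no clear order, were Nfkbia and Nfkb2, Nfkb2 and Nfkb1, Nfkbid and Relb, and Nfkbie and Nfkbiz. Bcl3 was the lowest of the family W/O IL-10, below every library of Nfkbiz. W/ IL-10 it reached 22.6 ± 0.711 CPM per kb, place 6, where its libraries overlapped those of Nfkbid (22.9 ± 1.62), Rel (21.7 ± 3.44) and Relb (21.3 ± 1.43). Nfkbiz reached 19.2 ± 1.54 CPM per kb and stood clear of Nfkbie (12.7 ± 1.16), its neighbour W/O IL-10.

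**Figure D3:**
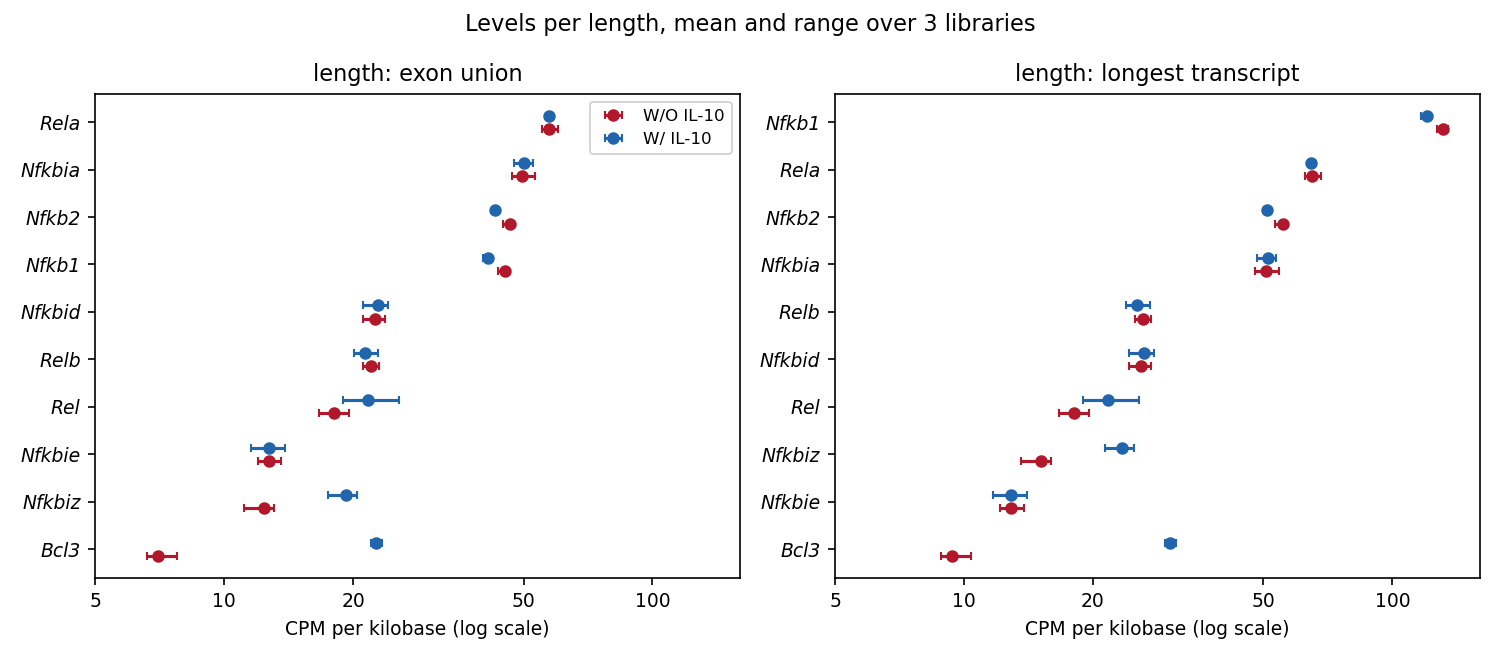
Level of each gene per kilobase (x axis, CPM per kb, log scale) as the mean and range over 3 libraries, with W/O IL-10 in red and W/ IL-10 in blue, by merged exon length (left) and by the longest transcript (right). Bcl3 is the lowest gene W/O IL-10 on both scales and moves into the middle of the family W/ IL-10, from 7.02 to 22.6 CPM per kb on the left and from 9.39 to 30.2 on the right.

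The length chosen changed the order of other genes. By the longest transcript, 7 of the 10 places W/O IL-10 differed. The merged exons of Nfkb1 span 12061 bases, and its longest transcript 4149. Nfkb1 then came first at 131 CPM per kb, while Bcl3 stayed last W/O IL-10 (9.39) and took place 5 W/ IL-10 (30.2). The ratio of Bcl3 to Nfkb1, which encodes a subunit that Bcl-3 binds, was 0.177, 0.146 and 0.145 per length of merged exons W/O IL-10 and 0.546, 0.531 and 0.560 W/ IL-10, with no overlap. The ratio of Bcl3 to Nfkb2 went from 0.151 ± 0.0188 to 0.527 ± 0.0117 (SD, n = 3 each). In both ratios the level that changed past the threshold was that of Bcl3. The ratio of Nfkbiz to Nfkbia went from 0.252 ± 0.0376 to 0.383 ± 0.0190.

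The pathway around these genes was described with 4 lists. The kinases and adaptors that lead to NF-kB (29 genes, among them the IKK subunits Chuk, Ikbkb and Ikbkg, and the receptor adaptors of the TRAF family) held no gene called by edgeR, DESeq2 or limma-voom, with a median log2 fold change of 0.051 and a range of -0.18 to 0.41. The groups did not overlap for 9 genes that were higher and 4 that were lower, against 22.6% of all tested genes in either direction. Whether the list shifted as a set was not tested. By unadjusted p under 0.05, 8 of the 29 were higher and 1 was lower. Without the share of all tested genes at that p, such counts cannot be read as a shift, in this list or those below. Traf1, a TRAF adaptor that NF-kB induces, came nearest: it was at 316 ± 15.7 CPM W/O IL-10 and 418 ± 22.4 CPM W/ IL-10, with an adjusted p under 0.05 but a fold change short of 1.5 (edgeR, log2 fold change 0.41, adjusted p = 0.0422). Traf5, a further adaptor of the TRAF family, did not pass (log2 fold change 0.29, edgeR adjusted p = 0.286).

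The list of other inhibitors and brakes (15 genes, among them Nfkbib and the deubiquitinases Tnfaip3, Cyld and Otulin) also held no gene called by these tools, with a median log2 fold change of 0.019 and a range of -0.38 to 0.15. The groups did not overlap for 2 genes that were higher and 4 that were lower, against 22.6% of all tested genes in either direction. By unadjusted p under 0.05, 1 was higher and 2 were lower. Tnfaip3, which encodes the ubiquitin-editing enzyme A20, measured 337, 415 and 439 CPM W/O IL-10 and 298, 306 and 313 CPM W/ IL-10. The groups did not overlap, but the spread W/O IL-10 was wide and the difference of -0.38 did not pass (edgeR, adjusted p = 0.121). Tnip1, the partner of A20, was at 206 ± 3.30 and 165 ± 12.7 CPM (-0.32, edgeR adjusted p = 0.0817), and Commd1 at 4.45 and 3.42 CPM (-0.38, edgeR adjusted p = 0.386). Nfkbib, which encodes IkB-beta, differed by -0.047 (edgeR, adjusted p = 0.879).

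Of 45 known NF-kB target genes, 43 were tested, 3 were called higher, 1 was called lower and 39 were not called. Over all tested genes, 1.45% were called in either direction. By unadjusted p under 0.05, 12 targets were higher and 9 lower, and 6 had an edgeR adjusted p under 0.05. The groups did not overlap for 10 targets that were higher and 11 that were lower, against 22.6% of all tested genes in either direction. The median log2 fold change of the targets was -0.079 over a range of -0.97 to 1.34, and 6 of the 45 are members of the family described above. The chemokine gene Ccl3 rose from 65.4 ± 3.18 to 159 ± 17.1 CPM (edgeR, log2 fold change 1.28, adjusted p = 0.000544). Its neighbour Ccl4 rose from 68.8 ± 14.8 to 174 ± 41.7 CPM (1.34, edgeR adjusted p = 0.0125). The gene of the AP-1 subunit Junb rose from 186 ± 6.50 to 285 ± 37.4 CPM (0.62, edgeR adjusted p = 0.0236), and Lta, which encodes lymphotoxin alpha, fell from 11.8 ± 0.650 to 6.39 ± 0.834 CPM (-0.88, edgeR adjusted p = 0.0213). Known targets thus moved in both directions, and most did not pass. Ccl3 was called under all 14 alternatives. The other 3 lost the call when some libraries were left out: Ccl4 without W/ IL-10 replicate 3, Lta without W/O IL-10 replicate 2 or any of the libraries W/ IL-10, and Junb in each case except that of W/ IL-10 replicate 1. The list then held 2 called genes without W/O IL-10 replicate 2 and 1 without W/ IL-10 replicate 3.

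**Figure D4:**
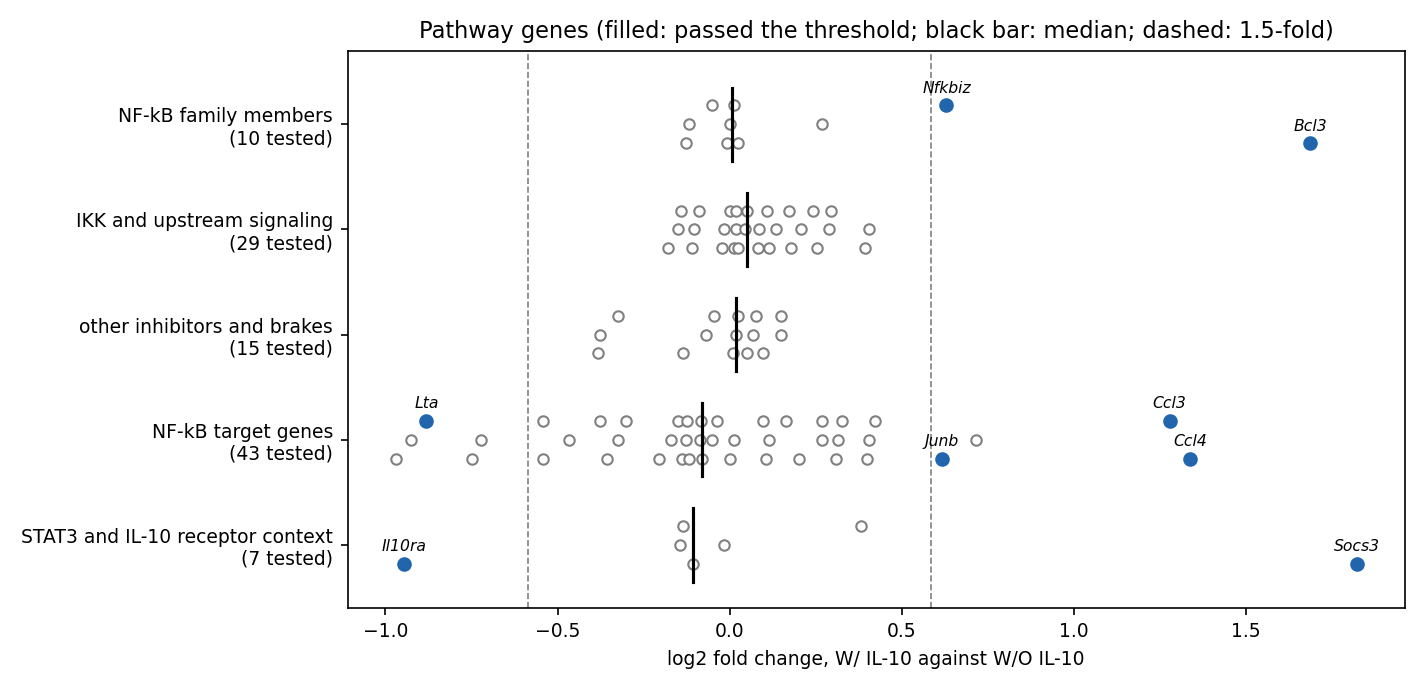
Log2 fold change (x axis, W/ IL-10 against W/O IL-10) of every tested gene of the family and of the 4 pathway lists, filled and named where it passed the threshold, with the list's median as a black bar and a 1.5-fold change as dashed lines. All 29 upstream signaling genes and all 15 other inhibitors lie between the dashed lines, and 4 target genes pass, 3 to the right and 1 to the left.

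Of 7 listed genes of the IL-10 receptor and its signaling, 1 was called higher and 1 lower. The share called in either direction over all tested genes was 1.45%. Socs3, the feedback inhibitor of STAT3 signaling, measured 11.2, 9.56 and 10.98 CPM W/O IL-10 and 29.2, 40.9 and 42.1 CPM W/ IL-10 (edgeR, log2 fold change 1.82, adjusted p = 0.00102). Il10ra, the ligand-binding chain of the IL-10 receptor, measured 387, 428 and 442 CPM W/O IL-10 and 206, 221 and 226 CPM W/ IL-10 (-0.95, edgeR adjusted p = 0.00122). Both genes were called under all 14 alternatives, and in neither did the groups overlap. Stat3 was at 382 ± 34.6 CPM W/O IL-10 and 498 ± 13.1 CPM W/ IL-10 and did not pass (0.38, edgeR adjusted p = 0.0720).

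The genes whose profile over the 6 libraries was most like that of Bcl3 were found by the Euclidean distance between log2 CPM values centred on each gene's mean. The nearest were Fam20a at a distance of 0.242, Pim2 at 0.314, Fzd10 at 0.360, Frem2 at 0.401 and Socs3 at 0.414. Fam20a, which encodes a pseudokinase of the secretory pathway, measured 19.2, 18.4 and 20.2 CPM W/O IL-10 and 57.1, 55.8 and 59.99 CPM W/ IL-10, close to Bcl3 in level as well. Pim2, a serine/threonine kinase of lymphocytes, was at 85.7 ± 8.16 CPM W/O IL-10 and 234 ± 7.15 CPM W/ IL-10. Fzd10, a Wnt receptor gene, had 25 to 32 counts per library in cells W/O IL-10 against 69 to 89 in cells W/ IL-10, and Frem2 had 2 to 3 against 11 to 16, so that their likeness rests on few reads. All 5 lay higher W/ IL-10, as the choice by likeness to Bcl3 fixes.

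Bcl3 was the most GC-rich member, at 62.65% of the bases of its longest transcript. The difference between the groups varied with GC content, measured in this way, over all genes. The median log2 fold change fell from 0.24 over the 1014 tested genes of up to 40% GC to -0.13 over the 543 with more than 60% GC. The library that deviated most was W/O IL-10 replicate 1, by a median of -0.51 in the first of these classes and 0.15 in the second. W/ IL-10 replicate 1 deviated the other way, by 0.25 and -0.12. Bcl3 lies in the class with the lowest median, and when the fit corrected for GC content and exon length it stood at 1.82 on the log2 scale. Nfkbiz, at 50.06% GC, then stood at 0.67 (edgeR, adjusted p = 0.00618).

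**Figure D5:**
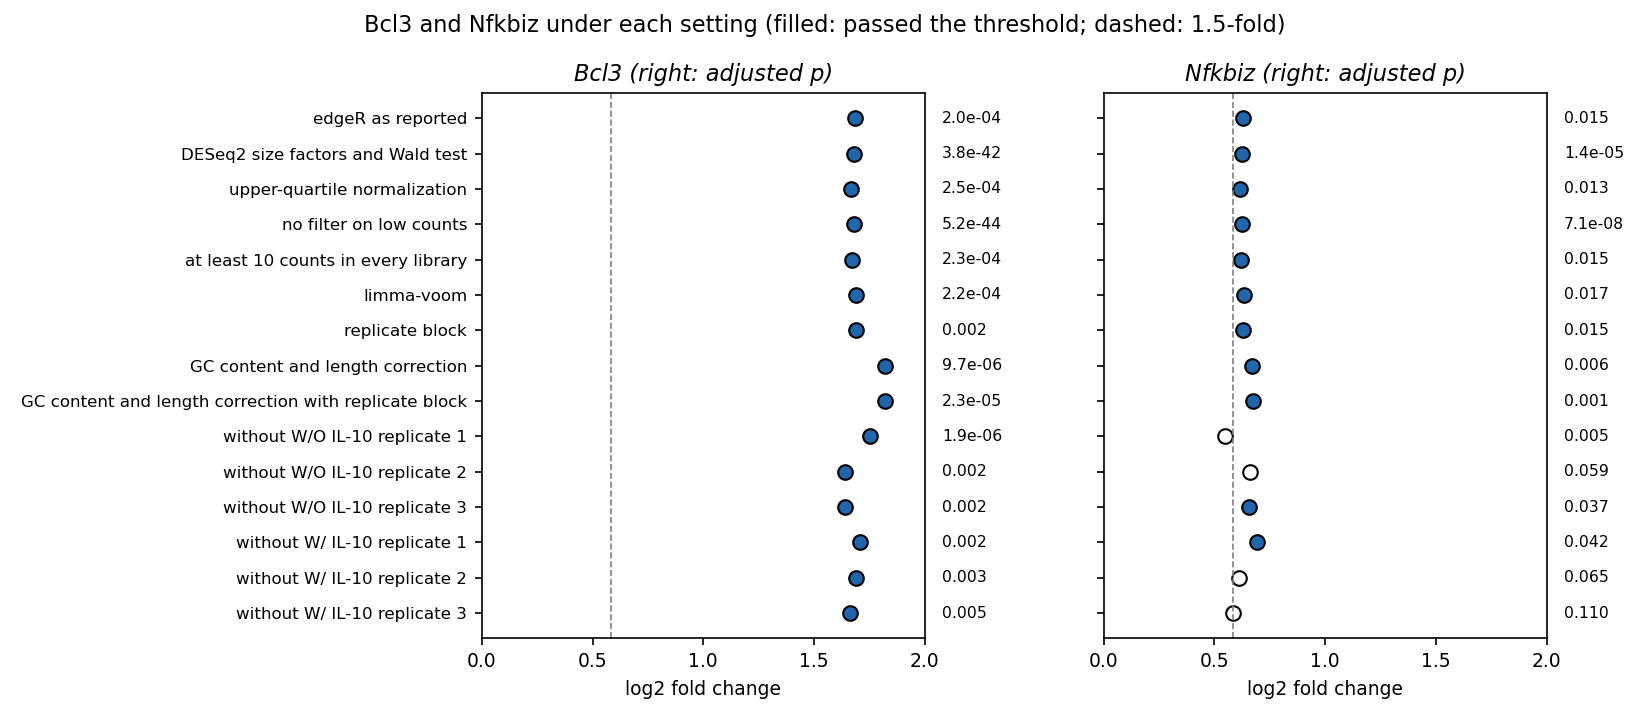
Log2 fold change (x axis) of Bcl3 and Nfkbiz as reported and under each of the 14 alternative settings (rows), filled where the gene passed the threshold, with the adjusted p at the right and a 1.5-fold change as a dashed line. Bcl3 stays between 1.64 and 1.82 and passes throughout, and Nfkbiz stays between 0.55 and 0.69 and fails in 4 of the settings, all of which leave out 1 library.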

How the data were processed

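RNA was sequenced from 6 cDNT libraries, 3 without (W/O) IL-10 and 3 with it (W/), grouped by the labels. The authors deposited 1 table of whole-number counts per Ensembl gene, not normalized. The submitters' processing notes name HISAT2, HTSeq and GRCm38, whereas the study's methods name TopHat and Cufflinks with UCSC annotation; versions and the strand setting are not given in the sources used here. The labels name a TruSeq kit and the methods a NEBNext kit, and the design text speaks of duplicates where 3 libraries are listed per group.

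TMM factors (0.953 to 1.03) were computed with edgeR 4.0.16 in R 4.3.3. Its quasi-likelihood test, without prior count, was run on the 14916 genes that reached 10 counts in 3 libraries or more, with Benjamini-Hochberg adjustment over all of them. The standard error is the log2 fold change divided by the square root of F, and intervals use the t distribution at the test's degrees of freedom. Alternatives were DESeq2 1.42.0, upper-quartile scaling, no filter, a minimum of 10 counts in each library, limma-voom (limma 3.58.1), the replicate number as a block, a correction for GC content and length (splines with 5 degrees of freedom, for the 99.9% of tested genes with annotation) with and without the block, and each library left out. Symbols and coordinates come from GENCODE M21, which held 29332 of the 29393 identifiers. Tables and plots were made with Python 3.11.15, pandas 2.3.3 and matplotlib 3.10.9, and the steps were tested on simulated data.

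Named were all members, from each list the called genes (or, with fewer than 3, the largest changes up to 3), the 5 nearest profiles to Bcl3 and the cell type markers. Nfkbib, the overlapping genes and the examples of list content were named after their values were seen. The members and lists were chosen with earlier results of these data known. A few listed genes are left unreported.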

Additional observations from a re-analysis of the deposited data

How the results depend on the processing

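Bcl3 kept its direction and its call under all 14 alternatives. The 2 called members became 1 to 2 with each library left out, as Nfkbiz ranged from 0.55 to 0.69 on the log2 scale and lost its call in 4 of the 6 cases. Members that were not called changed sign around 0: with the GC and length correction Nfkb2 was 0.0052 (0.0056 with the replicate block), Rela 0.11 (0.11) and Relb 0.048 (0.048), with upper-quartile scaling Nfkbia was -0.0057 and Nfkbie -0.017, and Nfkbie was -0.0025 with DESeq2, -0.0046 without the filter, -0.011 with at least 10 counts in every library and -0.00052 with the replicate block. With each library left out, Rela ranged from -0.047 to 0.020, Nfkbia from -0.039 to 0.058, Nfkbid from -0.025 to 0.081 and Nfkbie from -0.066 to 0.066. The 217 genes called over the whole table became 359 with DESeq2, 639 without the filter, 331 with the correction and block, 327 at any fold change and 35 to 254 with each library left out, fewest without W/ IL-10 replicate 3; 57 and 75 were left without W/ IL-10 replicate 1 and W/O IL-10 replicate 2. The 4 called target genes became 7 without the filter, 7 with the correction and block and 1 to 5 with each library left out. The cause was not tested.

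Libraries of the 2 groups share numbers in the labels. On values not corrected for GC content, same-numbered libraries did not deviate together (correlations of 0.052, -0.057 and 0.11). The number was therefore not treated as a pairing in the reported fit. With the replicate block, 196 genes were called and Bcl3 and Nfkbiz kept their calls. With the GC and length correction, 263 genes were called without the block and 331 with it. The adjusted p of Nfkbiz (edgeR) was 0.00618 without the block and 0.0010 with it. Whether same-numbered libraries form pairs is therefore not settled here. The members had at least 385 counts in each library, and how far depth or the number of libraries set the width of the intervals was not tested.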
